A study of Mus musculus with 9 samples.

Results

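The genes described here are 44 mouse genes of the lysosome, chosen by name: 11 proteases, 14 hydrolases of sugars and their sulfates, 6 hydrolases of lipids or their activator proteins, 7 membrane and other lysosomal proteins, 4 subunits of the proton pump and 2 transcription regulators. They are 44 of the 37975 rows of the deposited gene table, and for a symbol with more than 1 row the row with the highest mean was taken. The study followed, by RNA sequencing, mouse embryonic stem cells (ESC) in which doxycycline (dox) switches on Sox17, a transcription factor of endoderm, as they convert towards extraembryonic endoderm stem (XEN) cells. It has 9 libraries and 1 library per group, so no group has a replicate error.

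R1 ESC are wild-type ESC without dox, and the wild-type XEN library is from the XEN line IM8AR, also without dox. The Sox17 line, an ESC line labelled 4J with the genotype Sox17 overexpression, was harvested without dox and after 7, 21, 35 and 49 h and 6 days of dox at 100 ng/ml. Sox17-XEN is a derivative of the same line that was, per its label, for 30 days in dox and for another 30 days off it. The order is not clear from that wording, and since its sample name reads dox-indep it was taken here as a library without dox at harvest. What drives the Sox17 transgene besides dox, how many clones were used and the meaning of the word SORT in the label of the day 6 library are not given in the sources used here. ESC were grown on mouse embryonic fibroblasts and XEN cells in medium conditioned by such fibroblasts, so RNA of fibroblasts can be in the ESC libraries.

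The lysosome is the acidic compartment in which cells degrade proteins, glycans and lipids that arrive by endocytosis or autophagy. Its enzymes are made as precursors, carried there by mannose 6-phosphate receptors and activated at the low pH that the V-ATPase, a proton pump, maintains. TFEB and TFE3, members of the MiT/TFE family, bind GTCACGTG-type sequences (the CLEAR element) near many lysosomal genes. The visceral endoderm of the early mouse embryo, a tissue of the lineage that XEN cells represent, is known for strong uptake of maternal nutrients and their breakdown in large apical lysosomes.

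Promoter windows of 250 bases before to 50 bases after the transcription start were available for 40 of the 44 genes, in the RefSeq tables of build GRCm38.p6. The letters GTCACGTG or, on the other strand, CACGTGAC stood in the windows of 12 of these 40 genes (30%) and of 3.19% of 17492 protein-coding genes. The shorter core CACGTG, which lies inside both and reads the same on both strands, stood in 15 of 40 (37.5%) against 8.91% of protein-coding genes. Counted by window, 25.5% of the 47 windows of these genes held the longer form against 2.84% of 21263 protein-coding windows of the same length. The core was found for 4 of 9 proteases, 6 of 14 sugar and sulfate hydrolases, 3 of 7 membrane genes and 2 of 3 pump subunits with a window, and for 0 of 5 lipid genes and 0 of 2 regulators. The longer form stood in the windows of 2 of 9 genes called higher in both XEN-type minus ESC-type pairs below, and of 10 of 31 others. The sequence was searched because it is known near many lysosomal genes, so a higher share in this list was likely beforehand. A match is a description of letters only, and binding was not measured.

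The following stretches of these promoters are shown because they hold the core in genes of 4 roles whose levels or differences are given below. They are written 5′ to 3′ on the strand of the gene and end before the transcription start, and capitals mark each CACGTG with the GT before it or the AC after it where these are present. The stretch of Ctsd lies at chr7:142387893-142387952 (minus strand), of Lgmn at chr12:102439109-102439168 (minus), of Gaa at chr11:119267796-119267855 (plus), of Gla at chrX:134601167-134601226 (minus), of Glb1 at chr9:114401003-114401062 (plus), of Naglu at chr11:101069994-101070053 (plus), of Lamp1 at chr8:13159106-13159160 (plus) and of Atp6v1a at chr16:44139358-44139417 (minus), all in GRCm38.p6.
Ctsd: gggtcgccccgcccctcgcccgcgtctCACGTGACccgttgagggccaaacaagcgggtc
Lgmn: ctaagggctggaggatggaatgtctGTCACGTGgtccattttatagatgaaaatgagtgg
Gaa: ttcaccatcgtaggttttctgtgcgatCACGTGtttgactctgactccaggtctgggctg
Gla: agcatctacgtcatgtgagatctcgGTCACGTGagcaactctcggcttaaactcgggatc
Glb1: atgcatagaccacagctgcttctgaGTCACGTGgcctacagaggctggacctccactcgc
Naglu: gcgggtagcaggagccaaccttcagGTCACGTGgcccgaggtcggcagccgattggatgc
Lamp1: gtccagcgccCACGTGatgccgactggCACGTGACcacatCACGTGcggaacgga
Atp6v1a: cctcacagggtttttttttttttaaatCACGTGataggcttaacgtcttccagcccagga
In Lamp1, 3 copies of the core stand within these 55 bases. Gaa and Atp6v1a hold the core without the flanking letters.

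Levels are in FPKM, sequenced fragments relative to the length of the transcript and to all mapped fragments of the library, and differences are of log2(FPKM + 1) between 2 single libraries. Such a difference understates the change of genes of few FPKM. A gene is called higher or lower where the difference is 2 or more log2 units, 4-fold in FPKM + 1, and no p-value belongs to such a call. Rows reaching 1 FPKM in at least 1 library were compared (15082 rows), which 43 of the 44 genes did. The gene left out, Ctss (cathepsin S, a protease of antigen-presenting cells), was at most 0.263 FPKM in any library. The read depth is unknown, since the table holds no counts.

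The label checks were as follows. Sox17 was 0.163 FPKM in R1 ESC and 0.909 FPKM without dox, 283, 281, 191 and 151 FPKM at 7, 21, 35 and 49 h, 71.1 FPKM at day 6, 101 FPKM in Sox17-XEN and 239 FPKM in wild-type XEN. The 3 pluripotent cell markers (Pou5f1, Nanog and Sox2) summed to between 864 and 1388 FPKM up to 49 h, to 328 FPKM at day 6 and to 2.83 and 3.66 FPKM in Sox17-XEN and wild-type XEN. At day 6 nearly all of that sum was Pou5f1 (325 FPKM), while Nanog was 1.89 FPKM. The 4 primitive endoderm markers (Gata4, Gata6, Sox7 and Dab2) summed to 4.17 FPKM in R1 ESC, 9.88 FPKM without dox, 101 FPKM at 49 h and between 1266 and 1567 FPKM in day 6, Sox17-XEN and wild-type XEN. The 13 fibroblast markers summed to 851 FPKM in R1 ESC, 1922 FPKM without dox, 915, 1222, 1553 and 2347 FPKM at 7, 21, 35 and 49 h, 173 FPKM at day 6, 729 FPKM in Sox17-XEN and 25.9 FPKM in wild-type XEN. Of 10 macrophage markers, whose cells are rich in lysosomes, 5 reached 1 FPKM anywhere, and the sum of the 10 was between 5.52 and 37.2 FPKM. Ptprc, which marks all white blood cells, was at most 0.0596 FPKM and listed at 0 at day 6 and in wild-type XEN. Laptm5 was 22.8 FPKM without dox, 28.3 FPKM at 21 h, 17.5 FPKM at day 6 and 0.0910 FPKM in wild-type XEN. Lyz2 was 10.6 FPKM at 35 h and 0.156 FPKM at day 6. Csf1r was 0.103 FPKM in R1 ESC, 0.162 FPKM at day 6, 1.22 FPKM in Sox17-XEN and 2.64 FPKM in wild-type XEN.

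Most lysosomal genes were at a higher level in the 3 libraries with the endoderm markers, at day 6 and in both XEN lines, than in the ESC libraries and the first 49 h of dox. Together the 44 genes took 0.267% of the summed FPKM in R1 ESC and 0.348% without dox, 0.281%, 0.319%, 0.360% and 0.455% at 7, 21, 35 and 49 h, 2.25% at day 6, 1.24% in Sox17-XEN and 1.32% in wild-type XEN. Ctsl alone made up a large part of this, and without it the share was 1.44% at day 6 and 0.236% in R1 ESC. The median gene stood at 18.5 FPKM in R1 ESC, 18.7 FPKM without dox, 72.2 FPKM at day 6, 51.2 FPKM in Sox17-XEN and 59.3 FPKM in wild-type XEN. In 33 of the 44 genes each of these 3 libraries lay above all 6 others, against 28.6% of the 14865 rows with all 9 values. In bulk RNA, more cells of a type and more RNA per cell cannot be told apart.

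**Figure D1:**
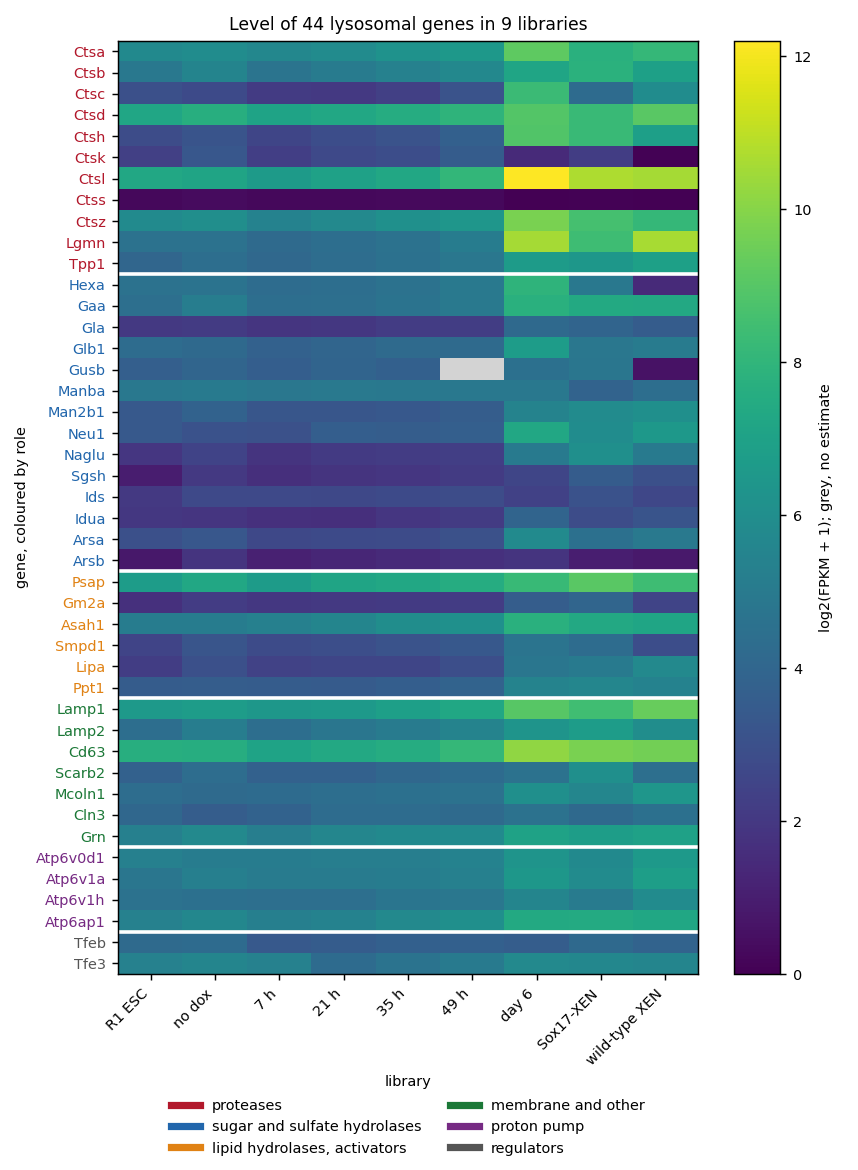
Level of each of the 44 lysosomal genes (rows, ordered and coloured by role) in the 9 libraries (columns), as log2(FPKM + 1) on the colour scale. The 3 right-hand columns are brighter than the 6 left-hand ones for most genes, Ctss is dark throughout, Hexa, Gusb and Ctsk are dark in wild-type XEN, and the grey cell is Gusb at 49 h, for which no estimate was obtained.

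**Figure D2:**
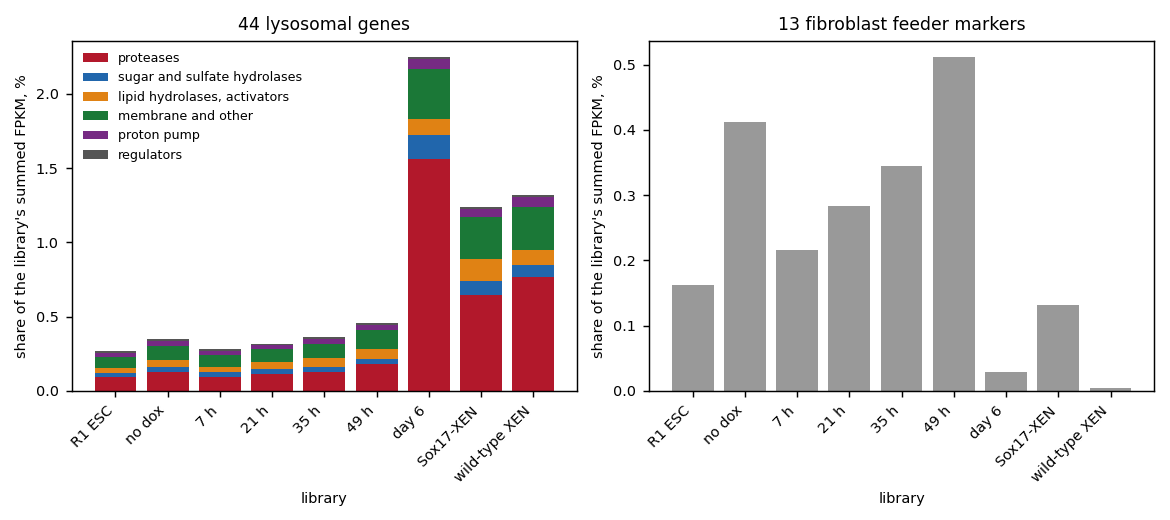
Share of each library's summed FPKM, in percent, taken by the 44 lysosomal genes (left, stacked by role) and by the 13 fibroblast markers (right), 1 bar per library and with separate vertical scales. The lysosomal share was 2.25% at day 6 against 0.348% without dox, while the fibroblast share was 0.0295% at day 6 against 0.412% without dox.

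Wild-type XEN cells against R1 ESC compares the 2 wild-type lines. Of 43 lysosomal genes, 18 were called higher in XEN (all rows, 8.24%) and 3 lower (all rows, 6.54%), and the median difference was 1.89 log2 units against 0.21 over all rows. The genes called higher were 8 of 10 proteases, 5 of 14 sugar and sulfate hydrolases, 2 of 6 lipid genes, 2 of 7 membrane genes and 1 of 4 pump subunits. The 3 called lower were Ctsk, Hexa and Gusb. Genes at 5 FPKM or more in both libraries had a median log2 ratio of 0.44, and with that shift removed 11 lysosomal genes were called higher and 3 lower, with a median of 1.46. The same removal turned the split over all rows from 1234 higher and 980 lower to 779 higher and 1104 lower.

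Up to 49 h of dox few genes of any kind passed the threshold. Called in either direction were 0 of 43 genes at 7 h (all rows, 0.786%), at 21 h (1.19%) and at 35 h (1.07%), and 0 of 42 at 49 h (1.17%), each against no dox. The uninduced Sox17 line against R1 ESC gave 0 of 43 as well (all rows, 0.594%). The medians were −0.37, −0.20, −0.07 and 0.23 log2 units at 7, 21, 35 and 49 h, beside −0.10, −0.06, −0.01 and 0.03 over all rows. Between R1 ESC and the uninduced line, which are 2 ESC libraries, the middle 95% of 8031 rows at 5 FPKM or more in both lay between −0.90 and 1.01.

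Below the threshold, many of the genes had a low level at 7 h. At that time 41 of 44 were below their no dox level, as were 66.5% of all rows. With the library shift of −0.12 removed, 35 of the 43 compared were still below 0, beside 50.1% of all rows. From 7 to 49 h, 29 of 44 had a higher value at every step and 15 did not, while 21.0% of all rows did. At 49 h against 7 h, 42 of 43 differences were above 0 with a median of 0.52, while 64.3% of all rows were above 0 with a median of 0.12. The summed fibroblast markers were likewise lower at 7 h (915 FPKM) than without dox (1922 FPKM) and highest at 49 h (2347 FPKM), and 32 of 44 lysosomal genes were lower in R1 ESC (851 FPKM of these markers) than in the uninduced line (all rows, 56.8%). The part of these markers' cells in the lysosomal values was not tested.

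At day 6 of dox, 18 of 43 genes were called higher than without dox (all rows, 5.14%) and 0 lower (all rows, 3.86%). The median difference was 1.79 log2 units against 0.10 over all rows. Called higher were 7 of 10 proteases, 8 of 14 sugar and sulfate hydrolases, 1 of 6 lipid genes, 2 of 7 membrane genes, 0 of 4 pump subunits and 0 of 2 regulators. With the shift of 0.25 in the median gene removed, 16 were called higher and 1, Ctsk, lower. Over all rows that removal turned 771 higher and 578 lower into 582 and 666. Against R1 ESC in place of the uninduced line, a comparison added after the fibroblast values were seen, 22 were called higher (all rows, 6.77%) and 0 lower (all rows, 3.42%). The summed fibroblast markers were lower at day 6 (173 FPKM) than in either ESC library.

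Most of the day 6 difference lay after 49 h. Against the 49 h library, 13 of 42 genes were called higher at day 6 (all rows, 3.74%) and 1, Ctsk, lower (all rows, 3.47%), with a median of 1.53 against 0.08. Within the dox course 39 of 44 genes had their highest level at day 6, as did 45.8% of all rows. For the 6 libraries of the course, a limma fit of level on the order of the time points called 0 of 42 genes at an adjusted p under 0.05, and 0% of 14933 rows. At an unadjusted p under 0.05 the slopes of 20 lysosomal genes were positive and 0 negative, beside 2442 and 1305 over all rows. With time in hours, where the day 6 library lies far from the rest, 34 were called, all with positive slopes, beside 28.8% of all rows with positive and 13.6% with negative slopes. Without day 6, the fit on the order of the time points again called 0, of these genes and of all rows.

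**Figure D3:**
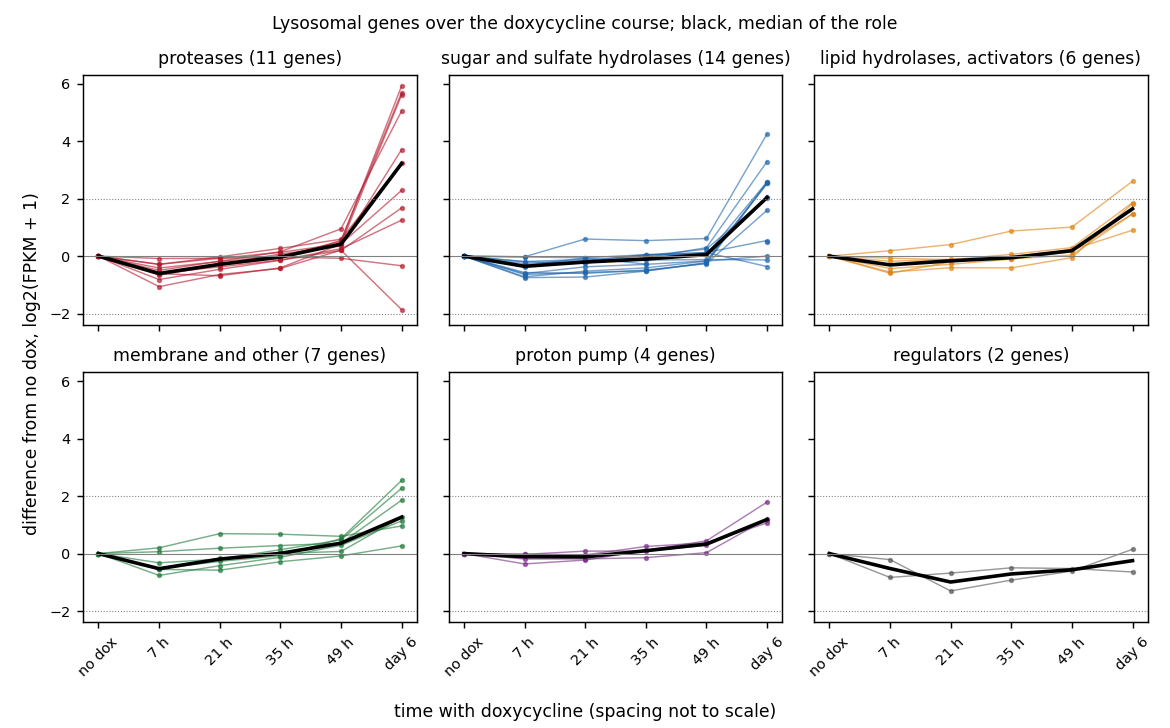
Difference of each lysosomal gene from its no dox level, in log2(FPKM + 1), over the dox course (horizontal axis, time points not to scale), 1 panel per role. Thin lines are genes, the black line is the median of the role and dotted lines mark 2 and −2. The lines stay between −1.30 and 1.01 up to 49 h and spread apart at day 6, where Lgmn reached 5.93 and Ctsk −1.86.

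In Sox17-XEN, against the uninduced line, 13 of 43 genes were called higher (all rows, 5.75%) and 0 lower (all rows, 5.0%), with a median of 1.56 against 0.17. With the shift of 0.36 in the median gene removed, 6 were called higher and 0 lower, and over all rows 862 higher and 749 lower became 575 and 891. Against R1 ESC in place of the uninduced line 20 were called higher (all rows, 8.79%) and 0 lower (all rows, 5.29%). Against day 6, 0 genes were called higher (all rows, 2.96%) and 3, Ctsc, Lgmn and Hexa, lower (all rows, 3.62%). The median difference from day 6 was −0.38, against 0.04 over all rows. Against wild-type XEN 3 genes were called higher, Ctsk, Hexa and Gusb (all rows, 2.73%), and 1 lower, Lgmn (all rows, 1.59%), with a median of 0.16 against 0.02. The fibroblast markers were at 729 FPKM in Sox17-XEN and 25.9 FPKM in wild-type XEN, and 11 of the 13 were called higher in Sox17-XEN.

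The 2 XEN-type minus ESC-type pairs share no library. In 37 of 44 genes both differences were above 0 (46.9% of the 14865 rows with all 9 values), and 12 were called higher in both (3.77% of those rows): Ctsb, Ctsh, Ctsl, Ctsz, Lgmn, Tpp1, Gaa, Man2b1, Neu1, Naglu, Asah1 and Lipa. With the median gene of each pair rescaled, 5 of them were called in both, Ctsh, Ctsl, Lgmn, Neu1 and Naglu, beside 2.42% of rows. A limma fit of both XEN-type lines against both ESC lines, with Benjamini-Hochberg adjustment over 14925 rows, called 15 of 43 lysosomal genes higher (all rows, 4.85%) and 0 lower (all rows, 3.89%) at an adjusted p under 0.05 and a difference of 2 or more. These 15 were the 12 just named together with Ctsa, Lamp1 and Cd63. The calls rest on all 4 lines. Sox17-XEN derives from the Sox17 line, so these 4 are not fully independent, and the fit did not take that relation into account. With any line left out, 1 side is a single library, assumed to vary like the other side, so only sizes are given. The median difference over the lysosomal genes was 1.42 without R1 ESC and 1.75 without the uninduced Sox17 line. It was 1.63 without Sox17-XEN and 1.88 without wild-type XEN, against 1.68 with all 4 lines. With rows of any level included, 2 were called higher, beside 145 of 37433 rows. Each library was also rescaled by its median log2 deviation from the row mean, over rows at 5 FPKM or more in all 4 lines. With that, 9 were called higher, beside 469 of 14925 rows.

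**Figure D4:**
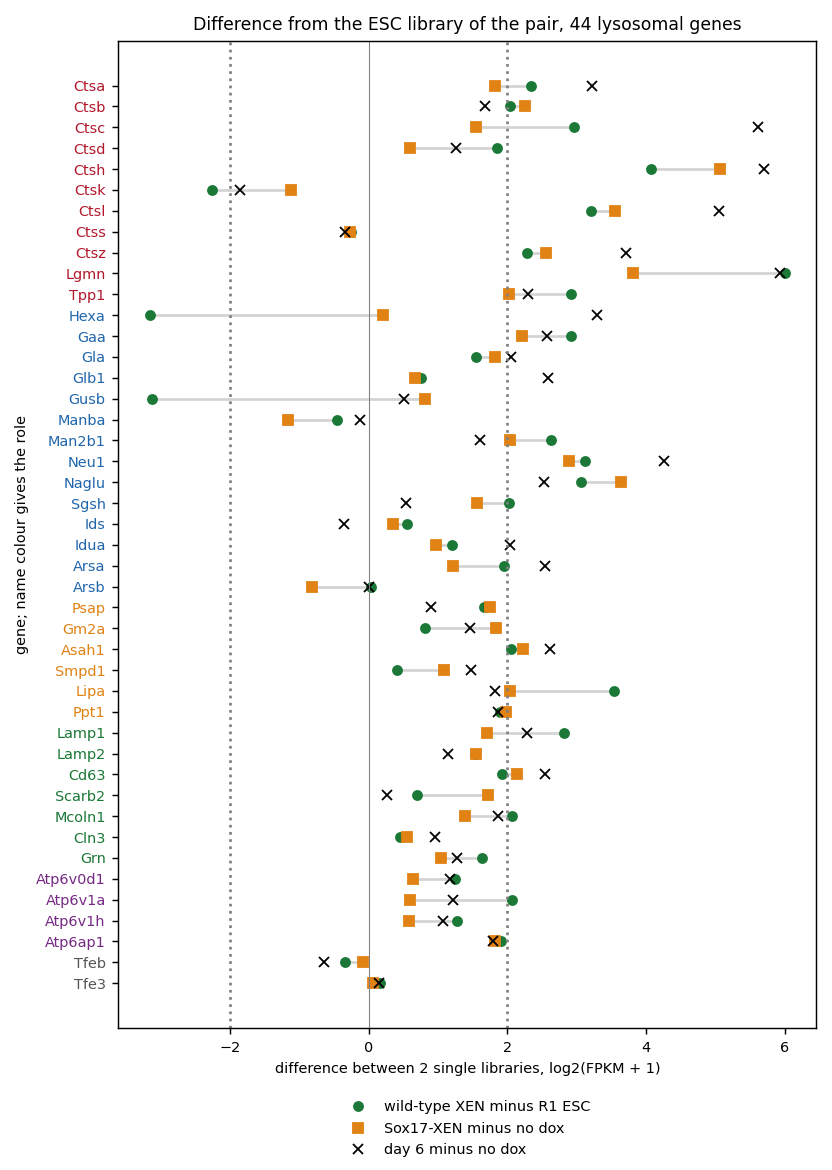
Difference in log2(FPKM + 1) for each of the 44 genes (rows, name colour by role) between wild-type XEN and R1 ESC (circles), Sox17-XEN and no dox (squares) and day 6 and no dox (crosses, which share the no dox library with the squares). Dotted lines mark 2 and −2. Circles and squares lie on the same side of 0 for most genes and part most for Gusb (−3.12 and 0.81) and Hexa (−3.16 and 0.21).

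Among the proteases, cathepsin L was the gene with the highest level of all 44 at day 6. Ctsl, a cysteine protease for which the file gives chr13:64464522-64471614 in build mm9, was 160 FPKM in R1 ESC, 141 FPKM without dox, 99.4, 124, 157 and 273 FPKM at 7, 21, 35 and 49 h, 4715 FPKM at day 6, 1665 FPKM in Sox17-XEN and 1490 FPKM in wild-type XEN. The 3 endoderm-marked libraries lay far above the rest, and 49 h was the highest of the others. Day 6 was 33.5-fold over no dox, and over the lines limma gave a difference of 3.38 (SE 0.28, adjusted p = 0.0171), in the same direction in 2 of 2 pairs of lines.

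Legumain, the asparaginyl endopeptidase that cuts several cathepsin precursors, had the largest difference of the 44 genes both between the wild-type lines (6.00) and at day 6 against no dox (5.93). Lgmn was 23.6 FPKM in R1 ESC, 23.5 FPKM without dox, 17.4, 20.6, 23.3 and 33.8 FPKM at 7, 21, 35 and 49 h, 1490 FPKM at day 6, 344 FPKM in Sox17-XEN and 1575 FPKM in wild-type XEN. Its level in Sox17-XEN was thus between the ESC libraries and the other XEN-type libraries, 4.91 log2 units being the limma difference over the lines (SE 0.79, adjusted p = 0.0289). The aminopeptidase cathepsin H showed another order. Ctsh was 6.10 FPKM in R1 ESC, 8.14 FPKM without dox, 4.78, 6.37, 7.67 and 12.3 FPKM at 7, 21, 35 and 49 h, 473 FPKM at day 6, 306 FPKM in Sox17-XEN and 118 FPKM in wild-type XEN. It was therefore higher in both Sox17-line libraries than in wild-type XEN, and its limma difference was 4.57 (SE 0.53, adjusted p = 0.0186).

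Cathepsin C, the dipeptidyl peptidase that activates serine proteases of granules, was high at day 6 and much lower in Sox17-XEN. Ctsc was 6.88 FPKM in R1 ESC, 5.61 FPKM without dox, 3.32, 3.12, 3.98 and 7.82 FPKM at 7, 21, 35 and 49 h, 323 FPKM at day 6, 18.3 FPKM in Sox17-XEN and 60.3 FPKM in wild-type XEN. Day 6 was 57.7-fold over no dox and Sox17-XEN was 3.26-fold over it, and the limma difference of 2.25 over the lines missed the threshold (SE 0.63, adjusted p = 0.0759). Cathepsin K, a collagen-degrading protease of osteoclasts and fibroblasts, went the other way. Ctsk was 3.97 FPKM in R1 ESC, 9.06 FPKM without dox, 3.81, 5.46, 6.47 and 10.6 FPKM at 7, 21, 35 and 49 h, 1.77 FPKM at day 6, 3.63 FPKM in Sox17-XEN and 0.0376 FPKM in wild-type XEN. Its highest and lowest libraries, 49 h and wild-type XEN, were also those of the summed fibroblast markers (2347 and 25.9 FPKM), and the part of fibroblast RNA in this was not tested.

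The other proteases, apart from Ctss (0.263 FPKM without dox and 0 at day 6), were higher at day 6 than without dox. The difference was 3.71 for Ctsz (cathepsin Z, a carboxypeptidase), 3.23 for Ctsa (which also protects neuraminidase and beta-galactosidase) and 2.29 for Tpp1 (a tripeptidyl peptidase), all called. Ctsb and Ctsd, the major cysteine and aspartic proteases of most lysosomes, differed by 1.68 and 1.25, below the threshold. Ctsd was already at 203 FPKM without dox and was 484 FPKM at day 6, and Ctsb was 218 FPKM in Sox17-XEN, above its 146 FPKM at day 6.

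Of the sugar hydrolases, Neu1, the sialidase, had the largest difference at day 6. Neu1 was 9.62 FPKM in R1 ESC, 7.38 FPKM without dox, 7.25, 11.7, 11.2 and 11.8 FPKM at 7, 21, 35 and 49 h, 159 FPKM at day 6, 61.0 FPKM in Sox17-XEN and 90.9 FPKM in wild-type XEN. The ESC libraries and the early hours did not overlap with the other 3, and limma gave 3.0 (SE 0.30, adjusted p = 0.0172). Naglu, an enzyme of heparan sulfate breakdown, was 2.87 FPKM in R1 ESC, 4.40 FPKM without dox, 2.54, 3.17, 3.42 and 3.82 FPKM at 7, 21, 35 and 49 h, 30.2 FPKM at day 6, 66.1 FPKM in Sox17-XEN and 31.3 FPKM in wild-type XEN. It was highest in Sox17-XEN, and its limma difference was 3.35 (SE 0.47, adjusted p = 0.0230).

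Hexa, the alpha subunit of beta-hexosaminidase A, and Gusb, beta-glucuronidase, parted between the XEN lines. Hexa, at chr9:59387474-59412914 (mm9), was 23.1 FPKM in R1 ESC, 24.3 FPKM without dox, 18.7, 20.5, 23.2 and 30.0 FPKM at 7, 21, 35 and 49 h, 247 FPKM at day 6, 28.2 FPKM in Sox17-XEN and 1.70 FPKM in wild-type XEN. It was called higher at day 6 and lower in wild-type XEN, with Sox17-XEN near the ESC level. Gusb, at chr5:130464881-130478919 (mm9), was 12.0 FPKM in R1 ESC, 15.0 FPKM without dox, 11.7, 14.3 and 12.2 FPKM at 7, 21 and 35 h, 21.7 FPKM at day 6, 27.1 FPKM in Sox17-XEN and 0.493 FPKM in wild-type XEN. Its estimate at 49 h failed in the authors' program and was treated as missing. Wild-type XEN was the lowest library for both genes, and Sox17-XEN was 16.6-fold higher than it for Hexa and 54.9-fold for Gusb. Neither had a limma difference past the threshold over the lines (adjusted p = 0.414 and 0.600).

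**Figure D5:**
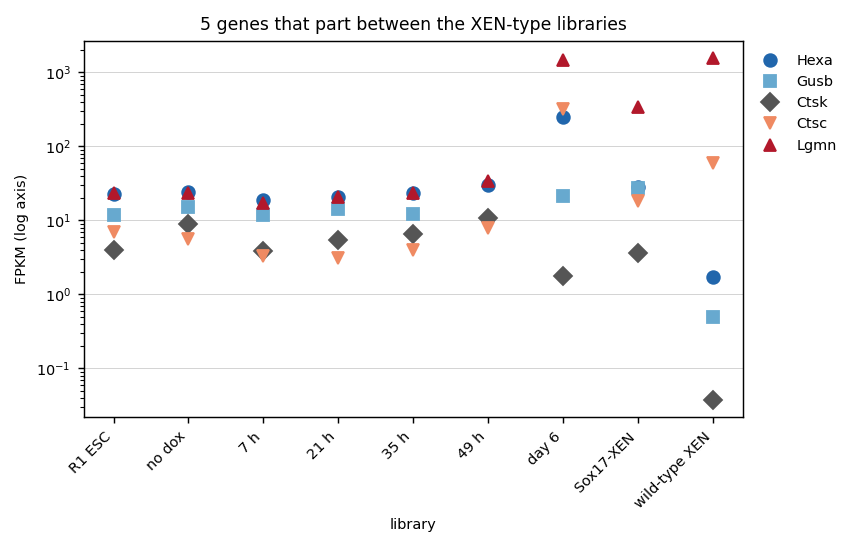
FPKM on a log axis of Hexa, Gusb, Ctsk, Ctsc and Lgmn in the 9 libraries, 1 point per gene and library (no point for Gusb at 49 h). Hexa, Gusb and Ctsk have their lowest point in wild-type XEN, at 1.70, 0.493 and 0.0376 FPKM, while Ctsc and Lgmn are higher in day 6 and wild-type XEN than in Sox17-XEN.

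Of the remaining sugar and sulfate hydrolases, some were called at day 6 or in a XEN line and some in neither. Called higher at day 6 were also Gaa (acid alpha-glucosidase, which breaks down glycogen) with 2.58, Glb1 (beta-galactosidase) with 2.58, Arsa (which removes the sulfate of sulfatide) with 2.54, Gla (alpha-galactosidase A) with 2.05 and Idua (an enzyme of heparan and dermatan sulfate breakdown) with 2.04. Glb1 differed by only 0.76 in wild-type XEN and 0.67 in Sox17-XEN from the ESC library of the pair. Man2b1, the alpha-mannosidase, differed by 1.60 at day 6 and was called higher in wild-type XEN (2.63) and Sox17-XEN (2.04). Sgsh, which acts on heparan sulfate, was called higher in wild-type XEN (2.02) and not at day 6 (0.54). Manba (beta-mannosidase), Ids and Arsb (which act on dermatan sulfate) were not called in any of the 3 comparisons with an ESC library, and their day 6 differences were −0.13, −0.36 and 0.00.

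The lipid genes had a median difference of 1.65 at day 6, between those of the sugar and sulfate hydrolases (2.04) and the membrane genes (1.27). Asah1, acid ceramidase, was 34.2 FPKM in R1 ESC, 34.0 FPKM without dox, 38.9, 45.3, 63.1 and 69.5 FPKM at 7, 21, 35 and 49 h, 212 FPKM at day 6, 163 FPKM in Sox17-XEN and 145 FPKM in wild-type XEN. It was above no dox at every time, also at 7 h, where most of the genes were below. Its slope over time missed the threshold (limma, 0.46 per time step, adjusted p = 0.120), and its difference over the lines was 2.14 (SE 0.18, adjusted p = 0.0171). Lipa, which hydrolyses cholesteryl esters and triglycerides, was 3.67 FPKM in R1 ESC, 6.80 FPKM without dox, 4.30, 4.90, 4.87 and 6.53 FPKM at 7, 21, 35 and 49 h, 26.6 FPKM at day 6, 31.2 FPKM in Sox17-XEN and 53.2 FPKM in wild-type XEN.

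Psap, the precursor of the saposin activators, was 107 FPKM in R1 ESC, 159 FPKM without dox, 105, 138, 157 and 185 FPKM at 7, 21, 35 and 49 h, 297 FPKM at day 6, 536 FPKM in Sox17-XEN and 340 FPKM in wild-type XEN. Its highest library was thus Sox17-XEN. Ppt1, which removes palmitate from proteins, was 10.6 FPKM in R1 ESC, 11.2 FPKM without dox, 10.6, 10.2, 11.7 and 14.0 FPKM at 7, 21, 35 and 49 h, 43.4 FPKM at day 6, 47.1 FPKM in Sox17-XEN and 42.0 FPKM in wild-type XEN. The 3 higher libraries lay close together, with differences between 1.86 and 1.98 from their ESC libraries, just under the threshold. Gm2a, the activator for ganglioside breakdown, and Smpd1, acid sphingomyelinase, each differed by 1.47 at day 6, and in wild-type XEN by 0.81 and 0.40.

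Of the membrane and other proteins, Lamp1 and Cd63 were called higher at day 6. Lamp1, a main glycoprotein of the lysosomal membrane, was 91.6 FPKM in R1 ESC, 108 FPKM without dox, 86.2, 94.5, 119 and 151 FPKM at 7, 21, 35 and 49 h, 527 FPKM at day 6, 353 FPKM in Sox17-XEN and 649 FPKM in wild-type XEN. Cd63, a tetraspanin of late endosomes, was 201 FPKM in R1 ESC, 196 FPKM without dox, 136, 162, 186 and 282 FPKM at 7, 21, 35 and 49 h, 1151 FPKM at day 6, 864 FPKM in Sox17-XEN and 765 FPKM in wild-type XEN. Over the lines limma gave 2.26 for Lamp1 (SE 0.38, adjusted p = 0.0309) and 2.03 for Cd63 (SE 0.26, adjusted p = 0.0203), each in the same direction in 2 of 2 pairs of lines.

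Mcoln1, the calcium channel of the lysosome, was 19.6 FPKM in R1 ESC, 17.6 FPKM without dox, 18.5, 20.2, 21.6 and 22.9 FPKM at 7, 21, 35 and 49 h, 66.5 FPKM at day 6, 47.7 FPKM in Sox17-XEN and 85.2 FPKM in wild-type XEN. Grn, progranulin, was 39.3 FPKM in R1 ESC, 53.3 FPKM without dox, 36.5, 47.4, 53.6 and 56.2 FPKM at 7, 21, 35 and 49 h, 130 FPKM at day 6, 111 FPKM in Sox17-XEN and 124 FPKM in wild-type XEN. Both had their 3 highest values in the endoderm-marked libraries, and Mcoln1 was called higher in wild-type XEN (2.07). Lamp2, Scarb2 (the carrier of glucocerebrosidase) and Cln3 differed by 1.14, 0.27 and 0.96 at day 6, and Scarb2 was 66.4 FPKM in Sox17-XEN against 23.6 FPKM at day 6 and 21.1 FPKM in wild-type XEN.

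Of the 4 pump subunits, 0 were called at day 6 and 0 in Sox17-XEN. Atp6v0d1 was 38.4 FPKM in R1 ESC, 34.1 FPKM without dox, 33.4, 36.2, 36.3 and 41.8 FPKM at 7, 21, 35 and 49 h, 77.8 FPKM at day 6, 53.8 FPKM in Sox17-XEN and 92.5 FPKM in wild-type XEN. Atp6v1a, the catalytic subunit, was 26.2 FPKM in R1 ESC, 37.5 FPKM without dox, 32.7, 32.8, 33.9 and 38.3 FPKM at 7, 21, 35 and 49 h, 87.9 FPKM at day 6, 57.4 FPKM in Sox17-XEN and 113 FPKM in wild-type XEN. Both were lower in Sox17-XEN than in the other endoderm-marked libraries. Atp6v1h was 23.5 FPKM in R1 ESC, 21.4 FPKM without dox, 21.0, 20.7, 25.6 and 28.0 FPKM at 7, 21, 35 and 49 h, 46.0 FPKM at day 6, 32.4 FPKM in Sox17-XEN and 58.4 FPKM in wild-type XEN. Atp6ap1, an accessory subunit, was 40.6 FPKM in R1 ESC, 48.5 FPKM without dox, 37.5, 41.3, 52.4 and 66.3 FPKM at 7, 21, 35 and 49 h, 170 FPKM at day 6, 174 FPKM in Sox17-XEN and 155 FPKM in wild-type XEN. The day 6 differences of the 4 lay between 1.07 and 1.79 and those in wild-type XEN between 1.25 and 2.06, where Atp6v1a was called. In Sox17-XEN the difference from no dox was 1.82 for Atp6ap1 and between 0.58 and 0.64 for the other 3.

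The RNA of the regulators did not follow that of the enzymes. Tfeb was 17.9 FPKM in R1 ESC, 17.9 FPKM without dox, 9.66, 10.8, 12.4 and 12.2 FPKM at 7, 21, 35 and 49 h, 11.1 FPKM at day 6, 16.8 FPKM in Sox17-XEN and 13.9 FPKM in wild-type XEN. Tfe3 was 40.5 FPKM in R1 ESC, 46.7 FPKM without dox, 40.3, 18.4, 24.2 and 30.3 FPKM at 7, 21, 35 and 49 h, 51.9 FPKM at day 6, 48.6 FPKM in Sox17-XEN and 45.5 FPKM in wild-type XEN. Neither was called in any of the 11 comparisons. RNA levels do not show where these proteins are in the cell, which is how they are known to be controlled. Tfec, a relative outside the 44 genes, was called higher at day 6 (4.07) and in wild-type XEN (4.70): it was 0.103 FPKM without dox, 1.31 FPKM at 49 h, 17.6 FPKM at day 6, 1.15 FPKM in Sox17-XEN and 26.2 FPKM in wild-type XEN.

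Further genes of the lysosome were counted from lists drawn up by function. Of all rows 5.14% were called higher at day 6 and 8.24% in wild-type XEN, and 3.86% and 6.54% lower. Of 24 other enzymes and activators, 7 were called higher at day 6 and 0 lower, with a median of 1.47, and 6 and 0 in wild-type XEN. Among them Siae, which removes acetyl groups from sialic acids, was 2.83 FPKM without dox, 34.2 FPKM at day 6, 10.2 FPKM in Sox17-XEN and 9.67 FPKM in wild-type XEN. Of 15 other membrane and transport genes compared at day 6, 3 were called higher and 0 lower, among them Slc17a5, the sialic acid exporter, with 2.72 FPKM without dox and 40.9 FPKM at day 6. Of 13 further pump subunits, 3 were called higher at day 6 and 0 lower. Atp6v0a1, an isoform of the membrane subunit a, had the largest difference: 8.84 FPKM in R1 ESC, 12.3 FPKM without dox, 13.5 FPKM at 49 h, 241 FPKM at day 6, 125 FPKM in Sox17-XEN and 152 FPKM in wild-type XEN. Of 7 genes of enzyme sorting and activation, 1 was called higher at day 6, Gnptg (2.26), a subunit of the enzyme that makes the mannose 6-phosphate mark.

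Cystatin C, a secreted inhibitor of cysteine proteases, was high in the 3 libraries in which Ctsl was high. Cst3 was 59.9 FPKM in R1 ESC, 59.5 FPKM without dox, 53.8, 53.9, 78.4 and 99.0 FPKM at 7, 21, 35 and 49 h, 783 FPKM at day 6, 281 FPKM in Sox17-XEN and 464 FPKM in wild-type XEN, and its day 6 difference was 3.70. Cst3 was the only 1 of 3 listed cysteine protease inhibitors called higher at day 6 (all rows, 5.14%). Cstb differed by 1.55 at day 6 and 0.85 in Sox17-XEN from no dox, and by 0.27 in wild-type XEN from R1 ESC. Cst6 was at most 0.0518 FPKM in any library. Of 8 other MiT/TFE and nutrient-sensing genes, 1 was called higher at day 6, Tfec (all rows, 5.14%). In wild-type XEN 3 were called higher, Tfec, Flcn and Fnip1 (all rows, 8.24%).

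Of the 44 genes, 16 share their listed locus with another row of the table, as do 38.9% of all rows, and values of such overlapping genes are less certain. Among the 28 compared genes with a locus of their own, 11 were called higher at day 6, 11 in Sox17-XEN and 12 in wild-type XEN, and among the other 15 these numbers were 7, 2 and 6. The shares of all rows with an own or a shared locus were not computed, so nothing is concluded from this split. The authors' confidence interval reached down to 0 in 388 of the 395 values of these genes, so no difference passed a test by separate intervals.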

How the data were processed

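Libraries of total RNA, 9 in all, were made with the TruSeq RNA kit, per the labels' protocols. Per the submitters' processing notes, the tools were TopHat2 2.0.11, Cufflinks 2.1.2 and Cuffdiff, with build mm9. FPKM, its bounds and a status per value come from the authors' deposited gene table. Values with a status other than OK were treated as missing. The table holds no reads per gene, so the depth is unknown, and an estimate from low values (62% to 127% of R1 ESC) rested on at most 8.38% of those rows. Here log2(FPKM + 1) was compared between libraries for rows reaching 1 FPKM, and a difference of 2 was called. Fits used limma 3.58.1 in R 4.3.3 with a mean trend, two-sided, with Benjamini-Hochberg adjustment over all rows, and were tested on simulated data. Their p-values measure only the spread between these libraries, which may be technical. The genes and lists were chosen with earlier results of these data known. All 44 genes are named, with every library's value for up to 4 genes per role with the largest difference at day 6 or in wild-type XEN and for genes called in opposite directions. Up to 3 genes were named per further list, of which 1 is not reported here. Motifs were searched in RefSeq promoter windows of GRCm38.p6, and gene positions are in mm9.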

Additional observations from a re-analysis of the deposited data

Results flagged for a closer look

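Hexa and Gusb differed in opposite directions in the 2 pairs of XEN-type and ESC-type lines, and this difference was not tested. For Hexa, wild-type XEN minus R1 ESC was −3.16 and Sox17-XEN minus no dox was 0.21 log2 units, a gap of −3.36. The 0.21 lies within the range of −0.90 to 1.01 seen between the 2 ESC libraries, and with the median gene rescaled it was −0.14, the same sign as in the wild-type pair (−3.42). For Gusb the values were −3.12 and 0.81, a gap of −3.94, and rescaled −3.25 and 0.46.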

How the results depend on the processing

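No paired analysis was possible because each group holds 1 library. At a threshold of 1 log2 unit, 30 genes were called higher in wild-type XEN, 3 in no dox against R1 ESC, 1 at 49 h, 32 at day 6 (28 against 49 h), 28 in Sox17-XEN, 3 in Sox17-XEN against day 6 and 8 against wild-type XEN. At the same threshold 3 were lower in wild-type XEN, 1 at 7 h and 1 at 21 h. The 1 gene lower at day 6 was Ctsk, also lower against 49 h. In Sox17-XEN 2 were lower, beside 11 in Sox17-XEN against day 6 and 2 against wild-type XEN. The shares of all rows at this threshold were not computed, so these counts show nothing particular to the lysosomal genes. Requiring the authors' intervals to be separate left 0 in each comparison. Rescaling by the median gene gave 11 higher in wild-type XEN, 6 in Sox17-XEN and 1 lower at day 6 (Ctsk), and a pseudocount of 0.1 also gave 1 lower at day 6. With R1 ESC in place of no dox, added after seeing the data, 20 were higher in Sox17-XEN. In the limma fit of the lines 9 were called after centring, 2 without the filter on low values, and 0 to 15 higher and 0 to 2 lower with a line left out. Without Sox17-XEN, the 2 lower were Hexa and Gusb. The slope in hours gave 34, and no time point was left out of that fit. On the order of the time points the slope gave 0, also with any 1 time point left out. No called difference of a single gene changed sign. Unknown depth limits the genes of few FPKM.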

Other observations

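Of the rows near Hexa and Gusb that reached 5 FPKM in any library, the closest were higher in wild-type XEN than in R1 ESC. These values are not rescaled, and in this pair genes at 5 FPKM or more in both libraries had a median log2 ratio of 0.44. Some of the small differences below are under that shift. Near Hexa, Parp6 (52176 bases away) was 4.30 FPKM in R1 ESC and 7.84 FPKM in wild-type XEN. Arih1 (53048 bases away) was 22.1 and 44.1 FPKM. Beside Gusb, Vkorc1l1 was 20.8 and 31.1 FPKM, and Asl was 20.6 and 23.6 FPKM. Rows farther away went both ways. Higher in wild-type XEN were Myo9a near Hexa (2.59 and 3.56 FPKM) and Sumf2 near Gusb (20.1 and 42.9 FPKM). Lower near Hexa were Pkm2 with 1866 and 1482 FPKM, Bbs4 with 4.39 and 3.58 FPKM and Adpgk with 31.1 and 29.9 FPKM. Lower near Gusb were Crcp with 16.0 and 14.9 FPKM, Tpst1 with 24.7 and 22.0 FPKM and 2410018M08Rik with 5.25 and 1.61 FPKM.

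Rragd, a GTPase of the nutrient-sensing complex on the lysosome, was 4.86 FPKM in R1 ESC, 5.44 FPKM without dox, 2.99, 1.25, 0.726 and 0.467 FPKM at 7, 21, 35 and 49 h, 0.835 FPKM at day 6, 0.292 FPKM in Sox17-XEN and 0.607 FPKM in wild-type XEN. It was the only one of the 8 listed MiT/TFE and nutrient-sensing genes called lower at 49 h (−2.13), and it was named after its values were seen. Rragc, a related gene on the same list, was 18.3 FPKM without dox and 35.5 FPKM at day 6.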
